A study of Mus musculus with 48 samples.

Results

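The genes described here encode 7 proteins of nitric oxide, itaconate and arginine metabolism and of superoxide removal: NOS2, IRG1, ARG1, ARG2, ASS1, SLC7A2 and SOD2. They were taken by upper-case gene symbol from 3 tables of mouse RNA measured by sequencing of 3′ ends. All 7 have a row among the 21637 genes of the stimulation table and among the 11278 genes of the perturbation table. Of the 13963 genes of the sorted population table, 4 are members (ASS1, SOD2, ARG2 and SLC7A2), and NOS2, IRG1 and ARG1 were not analysed there.

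Nitric oxide is made from arginine by nitric oxide synthases, and the inducible form, NOS2, is a classical product of activated mouse macrophages and monocyte-derived dendritic cells. SLC7A2 carries arginine into the cell, ASS1 rebuilds arginine from the citrulline that NOS2 releases, and the arginases ARG1 and ARG2 split arginine into ornithine and urea. IRG1, now also named ACOD1, makes itaconate from cis-aconitate, an intermediate of the citrate cycle, and SOD2 converts superoxide in mitochondria to hydrogen peroxide.

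Bone marrow of C57BL/6 females aged 6 to 10 weeks was grown with GM-CSF, which gave the cells labelled moDC, or with Flt3L, which gave the cells labelled pDC. Each culture was left untreated or given 100 ng/ml of LPS (a TLR4 ligand), 100 ng/ml of PAM3CSK (a TLR2 ligand, PAM below), or 5 µM of CpG A or CpG B, which are TLR9 ligands. RNA was taken after 1, 2, 4 and 6 h, and CpG A has no 2 h library here, so there are 16 conditions per culture and 32 libraries, each condition being 1 library. A second table holds GM-CSF cells with a control hairpin or one against Cebpb, which the labels call moDC and the column headers call cDC, and pDC with a control hairpin, a hairpin against Irf8, a GFP control vector or a vector for Cebpb, with 1 library each and no TLR ligand named. The third holds populations sorted by surface markers from bone marrow or spleen, of which 9 were used, with 1 library each. The labels name no sort of the cultured cells and do not say whether animals were pooled, so p-values measure the spread between these libraries.

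Column totals were 255062 to 748152 counts in the stimulation table, 39447 to 262557 in the perturbation table and 873734 to 5148680 in the sorted table. Levels in the stimulation table are TMM-scaled counts-per-million units (CPM), in which 1 count came to 1.27 to 3.87 CPM. A library with no count of a gene still allows 3 counts, which is 3.82 to 11.6 CPM. The 11 monocyte and macrophage markers summed to 15084 to 31345 CPM in moDC and 1618 to 5175 CPM in pDC, with counts for all 11 in both. The 9 pDC markers summed to 538 to 2939 CPM in moDC, where Klk1 was at 0, and to 2830.2 to 6688 CPM in pDC. Neutrophil markers summed to 7177 to 15615 CPM in moDC and 1037 to 1624 CPM in pDC, and those of basophils, mast cells and eosinophils to 1468 to 3202 CPM and 42.9 to 108 CPM. Conventional DC markers summed to 860 to 1733 CPM in moDC and 876 to 1560 CPM in pDC. The cultures labelled pDC thus held conventional DC transcripts as well. These near-equal sums hide markers that differed in opposite directions (log2 fold change of moDC over pDC in edgeR). Flt3 (-5.35), Cd8a (-5.29), Clec9a (-4.48), Itgae (-4.21), Xcr1 (-1.39) and Zbtb46 (-0.57) were lower in moDC. Batf3 (1.22), Clec10a (1.03) and Sirpa (0.58) were higher there. The changes of Zbtb46 and Sirpa were under a fold of 2. Markers of B, T and NK cells reached at most 24.3, 25.1 and 8.24 CPM in moDC and 257, 112 and 211 CPM in pDC. The part of these marker differences in the differences between cultures below was not tested, and in bulk RNA fewer cells of a type and less RNA per cell cannot be told apart.

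**Figure D1:**
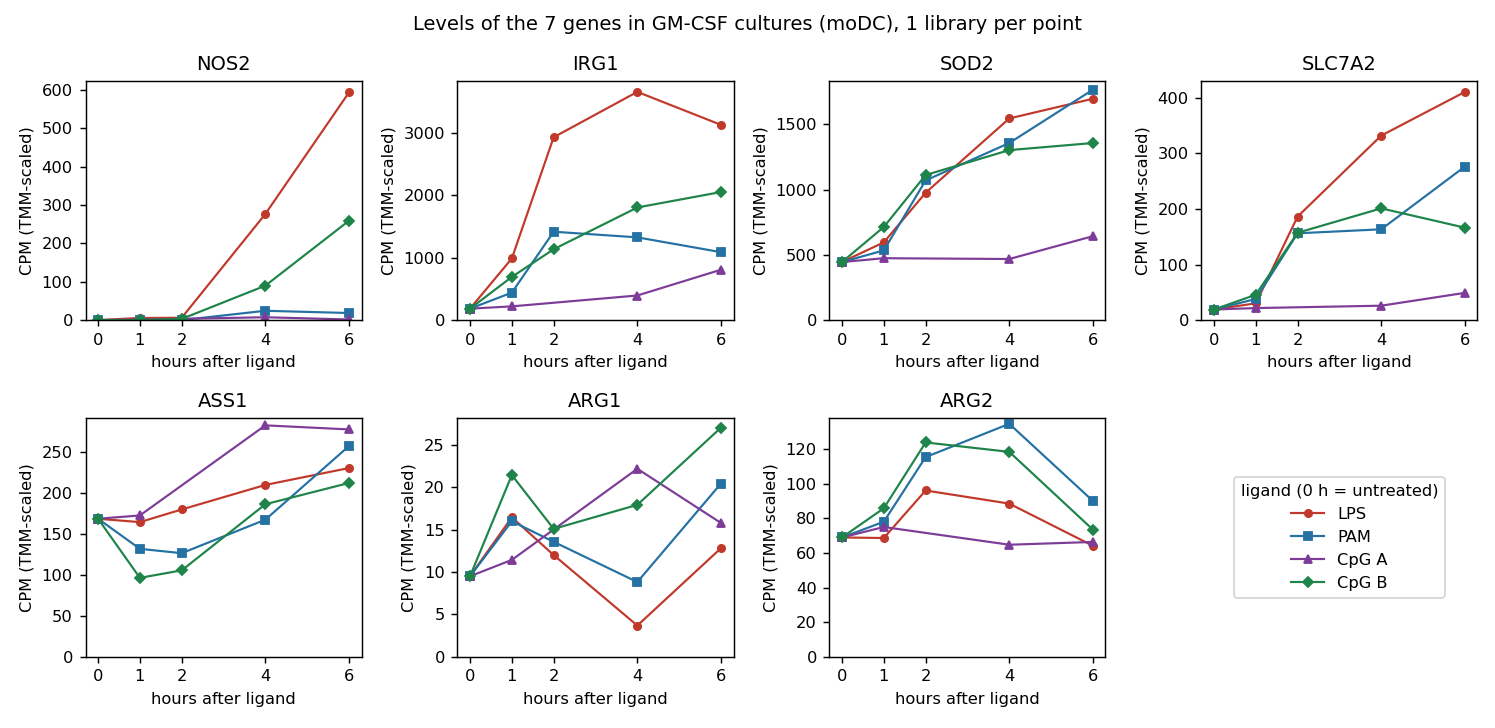
Level of each gene in moDC cultures against hours after the ligand, in TMM-scaled CPM, 1 library per point, with the untreated library at 0 h. NOS2 stayed at 6.01 CPM or less up to 2 h and reached 593 CPM at 6 h of LPS, while IRG1 with LPS was at 2932 CPM by 2 h.

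NOS2 appeared late and with some ligands. The untreated moDC library held 0 NOS2 counts, and with LPS the gene had 2, 2, 75 and 185 counts at 1, 2, 4 and 6 h, or 5.49, 6.01, 277 and 593 CPM. With CpG B it had 0, 1, 25 and 67 counts at these times, and 259 CPM at 6 h. With PAM the counts were 0, 0, 11 and 9, and with CpG A they were 1, 4 and 1 at 1, 4 and 6 h. The LPS and CpG B libraries at 4 and 6 h therefore stood above all other moDC libraries, whose highest value was 24.3 CPM.

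Taking 3 counts in the untreated library as the floor, NOS2 at 4 and 6 h together was at least 62.5-fold higher with LPS and at least 24.0-fold higher with CpG B. Both late responses passed the threshold used throughout, a Benjamini-Hochberg adjusted p below 0.05 over all genes tested and a fold of at least 2 (edgeR quasi-likelihood test, adjusted p = 1.21e-05 for LPS and 0.000343 for CpG B). For PAM the bound was 2.98-fold and the response did not pass (edgeR adjusted p = 0.158). It passed with no filter on low counts (edgeR adjusted p = 0.0261). Within the moDC libraries alone, 4 and 6 h against 1 h over the 4 ligands gave a log2 fold change of 6.01 ± 0.67 (SE, edgeR adjusted p = 2.08e-05). In the late LPS and CpG B libraries of moDC, the libraries with most NOS2, the 9 pDC markers summed to 1900.0 to 2939 CPM against 538 CPM untreated. The monocyte and macrophage markers summed there to 15084 to 22398 CPM against 27410 CPM. Of the 8 pDC markers tested, 2 passed the threshold higher with LPS and 3 with CpG B, and 0 lower. Of the 10 monocyte and macrophage markers tested, 2 rose and 2 fell with LPS, and 1 rose and 1 fell with CpG B. Over all genes 7.21% and 6.06% rose, and 9.93% and 7.99% passed in either direction. The sums thus do not stand for each marker, and the part of these marker shifts in the NOS2 response was not tested.

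In pDC, NOS2 was near the counting limit in most libraries. It had 3 counts untreated, 1, 1, 6 and 15 counts with LPS and 1, 1, 5 and 14 counts with CpG B at 1, 2, 4 and 6 h, and 1 or 2 counts in each PAM and CpG A library. At 6 h the ratio to the untreated library was 6.62 (95% counting interval 1.87 to 35.7) with LPS and 3.80 (1.06 to 20.6) with CpG B, and the late responses did not pass the threshold (edgeR adjusted p = 0.177 and 0.371). The highest pDC value, 41.8 CPM, was above every moDC library other than the 4 late LPS and CpG B libraries. NOS2 did not pass the filter on pDC libraries alone. Without that filter 4 and 6 h exceeded 1 h by a log2 fold change of 2.16 ± 0.48 (SE, edgeR adjusted p = 0.000179), with the caveat that no library held more than 15 counts. In the late LPS and CpG B libraries of pDC the monocyte and macrophage markers summed to 1618 to 2837 CPM, below the 4889.8 CPM of the untreated library, and the pDC markers to 5371 to 6688 CPM, above its 4159 CPM. Of the 8 pDC markers tested, 2 rose and 1 fell past the threshold with LPS, and 2 rose and 3 fell with CpG B. Of the 10 monocyte and macrophage markers, 2 rose and 3 fell with LPS, and 2 rose and 4 fell with CpG B. Over all genes 9.66% and 9.25% rose, and 15.6% and 18.8% passed in either direction. The part of these shifts in the NOS2 values was not tested.

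SLC7A2, the arginine transporter, rose in moDC with LPS, PAM and CpG B, and it did so before NOS2 rose. It was at 19.0 CPM untreated and at 30.2, 186, 332 and 411 CPM after 1, 2, 4 and 6 h of LPS. With PAM it was at 38.0, 156, 163 and 276 CPM, and with CpG B at 45.6, 157, 201 and 166 CPM. With CpG A it was at 21.6, 25.9 and 49.0 CPM, so that each 2, 4 and 6 h library of the other ligands lay above the CpG A series. The late log2 fold changes over untreated were 4.27 ± 0.50 with LPS, 3.51 ± 0.51 with PAM and 3.25 ± 0.52 with CpG B (SE, edgeR adjusted p = 8.42e-06, 0.000207 and 0.000343). With CpG A the change was 0.99 ± 0.57 and did not pass (edgeR adjusted p = 0.728).

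In pDC SLC7A2 had 1 to 7 counts in every library, and the late response passed the threshold for no ligand. The highest values were 16.1 and 19.5 CPM at 4 and 6 h of LPS, against 2.11 CPM untreated (log2 fold change 2.91 ± 1.04, edgeR adjusted p = 0.0587). Only in the LPS libraries at 4 and 6 h did SLC7A2 in pDC come near the untreated moDC level.

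ASS1, which makes argininosuccinate from citrulline and aspartate, was already high in untreated moDC and moved little there. It was at 169 CPM untreated, and the treated moDC libraries ran from 96.6 CPM at 1 h of CpG B to 283 CPM at 4 h of CpG A. The late log2 changes in moDC were 0.24 to 0.73, and none passed the threshold. Over the 4 ligands 4 and 6 h exceeded 1 h by a log2 fold change of 0.68 ± 0.16 (edgeR adjusted p = 0.00904), which is under a fold of 2.

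In pDC ASS1 started low, at 16.8 CPM and 8 counts. It was at 14.1, 22.5, 61.6 and 75.2 CPM after 1, 2, 4 and 6 h of LPS and at 11.2, 33.0, 55.1 and 63.4 CPM with CpG B. With PAM it was at 13.3, 16.4, 32.7 and 32.9 CPM, and with CpG A at 16.2 and 19.3 CPM at 1 and 4 h and 106 CPM at 6 h. Thus no 1 h library exceeded the untreated level, and every 4 and 6 h library did. The comparison of 4 and 6 h with 1 h, which uses no untreated library, gave a log2 fold change of 1.96 ± 0.38 (SE, edgeR adjusted p = 0.00102).

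The single ligand tests of ASS1 in pDC depended on the processing. LPS passed with a log2 fold change of 2.00 ± 0.66 (edgeR adjusted p = 0.0399). The call was lost with DESeq2 (adjusted p = 0.0787), with scaling by column totals (edgeR adjusted p = 0.0892), with pDC libraries alone (0.0760), without the 4 h library (0.0654) and without the 6 h library (0.113), and it was kept with no filter (2.05, edgeR adjusted p = 0.0105). CpG B and CpG A gave 1.80 ± 0.65 and 1.80 ± 0.68 and did not pass (edgeR adjusted p = 0.0548 and 0.152). CpG B passed with no filter (1.84, edgeR adjusted p = 0.0236). For CpG A the value rested on 6 h, and without the 4 h library it was 2.64 and passed (edgeR adjusted p = 0.00259).

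The arginases gave no late response past the threshold in either culture. ARG1, the cytosolic liver-type arginase and a marker of alternatively activated macrophages, gave 103 counts in all of moDC and 9 in all of pDC, from 16 libraries each, and after scaling the ratio was 11.4 (95% counting interval 5.76 to 25.5). It ran from 3.69 to 27.1 CPM in moDC, where no library was at 0, and from 0 to 5.52 CPM in pDC, where 8 libraries were at 0. ARG1 did not pass the filter, which asks for at least 20 CPM of column totals, before TMM scaling, in at least 4 libraries, and which ARG1 met in 3, so it is in none of the counts below. Without the filter the culture difference was 3.28 ± 0.35 (SE, edgeR adjusted p = 1.02e-10), and ARG1 was higher in moDC in 16 of 16 conditions.

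ARG2, the mitochondrial arginase, was between 64.2 and 135 CPM in moDC, with 69.0 CPM untreated and the highest value at 4 h of PAM. In pDC it was between 21.3 and 78.0 CPM, with 37.9 CPM untreated and 77.7 and 78.0 CPM at 4 and 6 h of LPS. The largest late change was that of LPS in pDC, a log2 fold change of 1.03 ± 0.47 that did not pass (edgeR adjusted p = 0.141). ARG2 was higher in moDC in 15 of 16 conditions by 0.91 ± 0.14 on the log2 scale (edgeR adjusted p = 2.25e-06), a difference under a fold of 2.

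**Figure D2:**
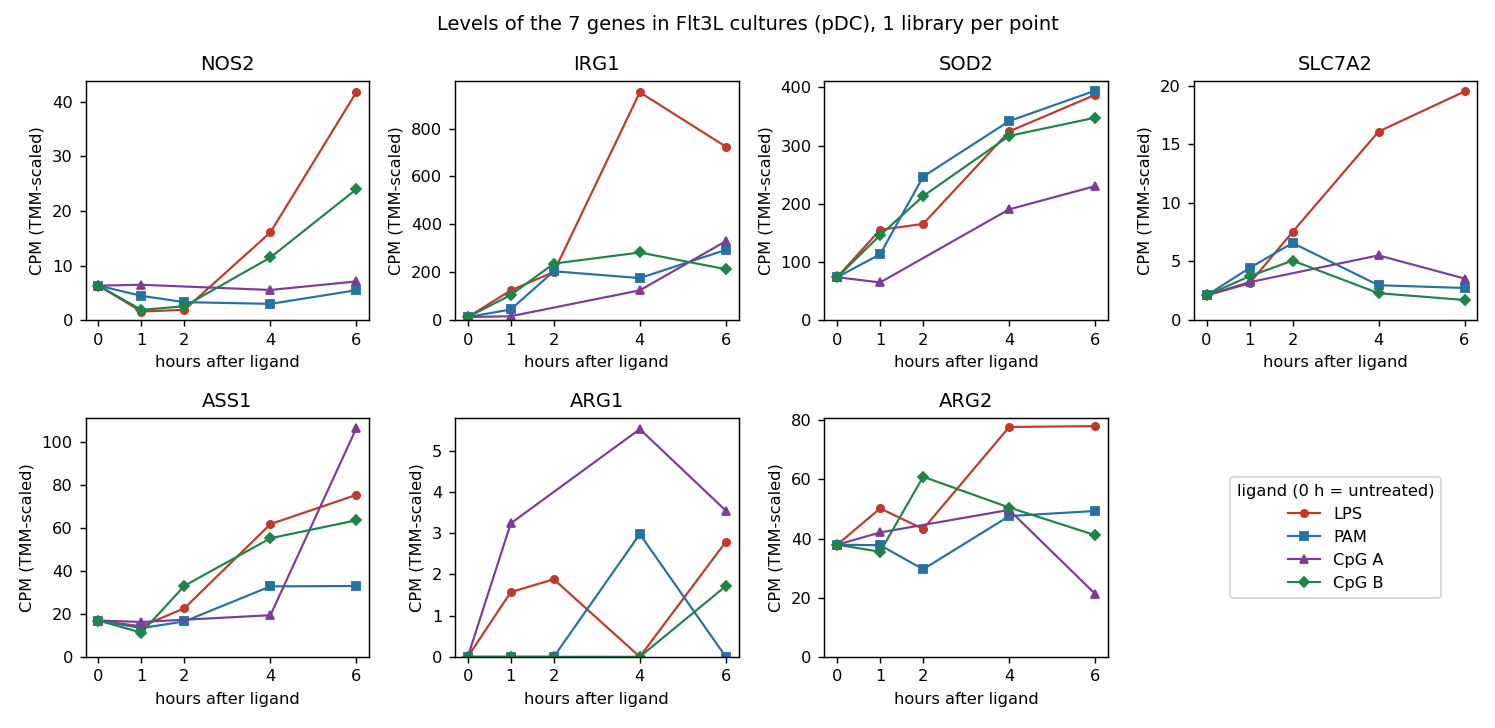
Level of each gene in pDC cultures against hours after the ligand, in TMM-scaled CPM, 1 library per point, with the untreated library at 0 h. The vertical scales differ from those of moDC: IRG1 with LPS peaked at 952 CPM at 4 h, and ASS1 was above its untreated 16.8 CPM in every 4 and 6 h library.

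IRG1, the itaconate enzyme, rose in both cultures and was far above untreated before NOS2 rose. In moDC it was at 183 CPM untreated and at 989, 2932, 3659.7 and 3131 CPM after 1, 2, 4 and 6 h of LPS. With CpG B it was at 692, 1136, 1806 and 2054 CPM, and with PAM at 440.4, 1417, 1327 and 1089 CPM. With CpG A it was at 220.0, 394 and 808 CPM at 1, 4 and 6 h. All 15 treated moDC libraries were above the untreated one, LPS was the highest ligand at every time, and with PAM the level peaked at 2 h.

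In pDC, IRG1 was at 12.6 CPM untreated, from 6 counts. It was at 124, 201, 952 and 724 CPM with LPS and at 44.4, 204, 176 and 293 CPM with PAM at 1, 2, 4 and 6 h. With CpG B it was at 105, 236, 282 and 213 CPM, and with CpG A at 16.2, 124 and 329.5 CPM at 1, 4 and 6 h. The CpG A library at 6 h was thus above those of CpG B and PAM at 6 h, while at 1 h CpG A was the lowest ligand and close to untreated.

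The late log2 fold changes of IRG1 in moDC were 4.21 ± 0.52 with LPS, 3.39 ± 0.50 with CpG B and 2.72 ± 0.48 with PAM (SE, edgeR adjusted p = 1.21e-05, 0.000167 and 0.00179). CpG A gave 1.72 ± 0.46 and did not pass (edgeR adjusted p = 0.169). It passed without the 4 h library (2.14, edgeR adjusted p = 0.0227), with moDC libraries alone (0.0304), with no filter (0.000212) and with DESeq2 (adjusted p = 0.0492). In pDC all 4 ligands passed, with 6.02 ± 0.67 for LPS, 4.25 ± 0.68 for CpG B, 4.19 ± 0.68 for PAM and 4.11 ± 0.69 for CpG A (edgeR adjusted p = 2.54e-06, 8.43e-05, 0.000429 and 0.000512). The 4 late tests of a culture share its 1 untreated library, so they are not independent of each other.

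The fold changes of IRG1 were larger in pDC and its levels lower, and the difference in fold did not pass the threshold for any ligand. The moDC response minus the pDC response was -1.81 ± 0.85 for LPS, -1.47 ± 0.86 for PAM, -2.40 ± 0.85 for CpG A and -0.86 ± 0.86 for CpG B on the log2 scale (SE, edgeR adjusted p = 0.568, 0.624, 0.404 and 0.727). From 1 h to 4 and 6 h, IRG1 rose by 1.52 ± 0.17 in moDC and by 2.28 ± 0.33 in pDC (edgeR adjusted p = 2.23e-05 and 9.06e-05).

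SOD2, the mitochondrial superoxide dismutase, rose in both cultures. In moDC it was at 445 CPM untreated, and at 6 h it was at 1697 CPM with LPS, 1767 CPM with PAM, 1357 CPM with CpG B and 643 CPM with CpG A. At 1 h these ligands gave 596, 534, 714 and 474 CPM. In pDC it was at 73.7 CPM untreated and at 387, 395, 348 and 230.3 CPM at 6 h of LPS, PAM, CpG B and CpG A. No pDC library (highest 395 CPM) reached any moDC library (lowest 445 CPM).

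The late log2 fold changes of SOD2 in moDC were 1.87 ± 0.31 with LPS, 1.81 ± 0.30 with PAM and 1.58 ± 0.30 with CpG B (edgeR adjusted p = 0.000253, 0.00114 and 0.0016), and CpG A gave 0.32 ± 0.29 (edgeR adjusted p = 0.835). In pDC they were 2.27 ± 0.35, 2.32 ± 0.35, 2.17 ± 0.35 and, for CpG A, 1.50 ± 0.35, and all 4 passed (edgeR adjusted p = 8.27e-05, 0.000199, 8.75e-05 and 0.011). The CpG A call was lost without the 6 h library (1.37, edgeR adjusted p = 0.0860). LPS and PAM, which differed on NOS2 and IRG1 in moDC, gave close SOD2 levels there (log2 difference 0.04 ± 0.18, edgeR adjusted p = 0.946).

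The bases before the start sites of IRG1 and SOD2, the members whose late response passed in most conditions, are shown with the motif matches found in them. They come from RefSeq on GRCm38.p6, whereas mm9 is the build named for the deposited counts. IRG1 lies at chr14:103046762-103047011 and SOD2 at chr17:13007589-13007838, both on the plus strand, and each run holds the 250 bases before the start site, 5′ to 3′. Capitals mark matches on either strand to a GAS motif (TTCNNNGAA) and to the NF-kB consensus.
IRG1: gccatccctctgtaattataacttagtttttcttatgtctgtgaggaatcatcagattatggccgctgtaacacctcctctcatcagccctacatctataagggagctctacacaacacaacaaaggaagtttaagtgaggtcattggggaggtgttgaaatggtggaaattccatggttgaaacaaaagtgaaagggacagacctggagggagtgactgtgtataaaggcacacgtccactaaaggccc
SOD2: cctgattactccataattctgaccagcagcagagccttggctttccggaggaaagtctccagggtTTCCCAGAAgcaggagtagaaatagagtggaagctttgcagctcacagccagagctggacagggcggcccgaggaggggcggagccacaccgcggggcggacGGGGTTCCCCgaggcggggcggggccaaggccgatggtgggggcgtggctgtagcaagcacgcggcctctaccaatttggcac

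The search covered 5 motifs on both strands in windows from 250 bases before to 50 bases after the start site, and 3 members (ASS1, IRG1 and SOD2) have a window. SOD2 has an NF-kB consensus match from -83 to -74, on both strands, and a GAS match from -185 to -177, and neither overlaps the other. The GAS motif reads the same on both strands, so its match on both is set by the motif. The windows of IRG1 and ASS1 held no match to these motifs, to the ISRE core (GAAANNGAAA), to AP-1 (TGANTCA) or to the C/EBP motif (TTGCNNAA). Of 32841 windows of this length, 8.46% held the NF-kB consensus, 8.3% GAS, 3.44% the ISRE core, 7.81% AP-1 and 10.8% the C/EBP motif. A match is a string of letters and says nothing of binding.

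Of the 6 members tested over the 32 libraries, 4 rose late with LPS in moDC (NOS2, SLC7A2, IRG1 and SOD2), where 7.21% of all genes tested rose and 9.93% were called in either direction. The same 4 rose with CpG B, where 6.06% of genes rose and 7.99% were called, and 3 of them (all but NOS2) rose with PAM, where 1.92% rose and 2.4% were called. With CpG A none of the 6 was called, in a comparison that called 0.0497% of genes. There 1 member was under an unadjusted p of 0.05 in edgeR and DESeq2 called 1, in each case IRG1.

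In pDC 3 members rose late with LPS (IRG1, SOD2 and ASS1), where 9.66% of genes rose and 15.6% were called. IRG1 and SOD2 rose with PAM, CpG A and CpG B, where 3.24%, 3.97% and 9.25% of genes rose and 6.33%, 4.89% and 18.8% were called. NOS2 and SLC7A2 had 20 CPM of column totals in 7 and 15 libraries and did not reach the filter in the pDC libraries alone. Their place among the tested genes is thus not independent of the culture difference. The 7 libraries of NOS2 were all taken at 4 or 6 h, and none of them was CpG A. Most were moDC, and the LPS and CpG B libraries of pDC at 6 h were also among them. Its place in the late, time and ligand counts of moDC, above and below, is therefore partly set by the libraries where it is high.

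The 4 late differences between the cultures called none of the 6 members, and they called 0.0745%, 0.124%, 0.261% and 2.04% of genes for LPS, PAM, CpG A and CpG B. Under an unadjusted p of 0.05 in edgeR were 2 members with LPS (NOS2 and IRG1), 1 with PAM (NOS2), 2 with CpG A (IRG1 and SOD2) and 1 with CpG B (NOS2), and DESeq2 called none. The smallest adjusted p of the 4 comparisons was that of NOS2 with CpG B (edgeR adjusted p = 0.188). These tests rest on 1 untreated library per culture, and a p that misses the threshold does not show that the responses were alike.

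**Figure D3:**
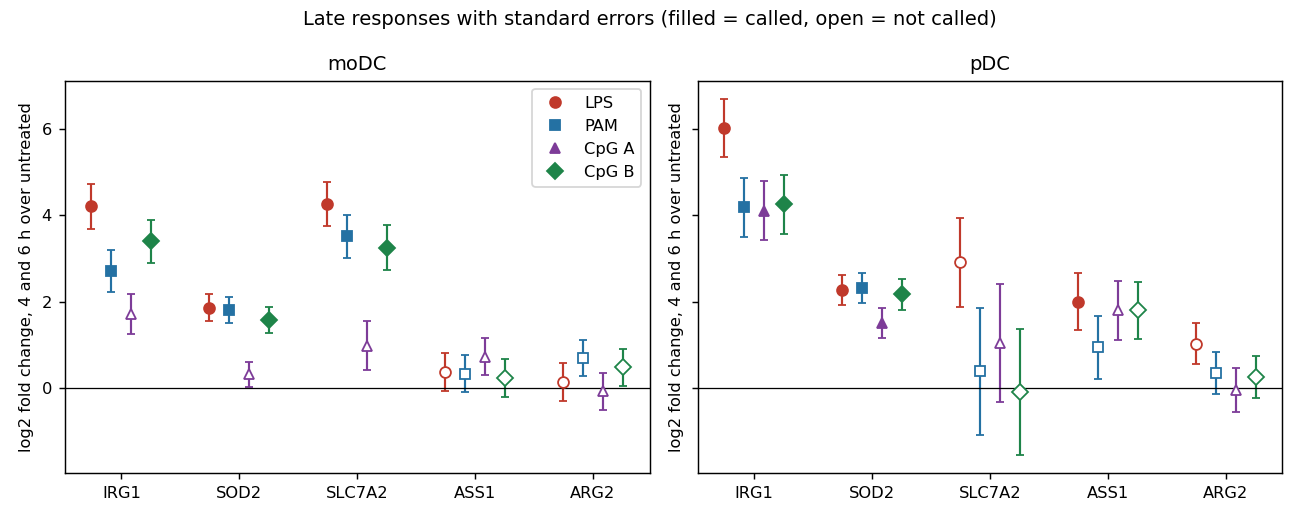
Late response of 5 of the genes, as the log2 fold change of the 4 and 6 h libraries over the untreated library, with its standard error. Filled points passed the threshold, open points did not. NOS2 is left out because the untreated moDC library held 0 counts. IRG1 and SOD2 each passed in 7 of 8 pairs of ligand and culture, and SLC7A2 in moDC with LPS, PAM and CpG B.

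Kinetics were also compared without the untreated libraries. In moDC 3 of 6 members rose from 1 h to 4 and 6 h (NOS2, SLC7A2 and IRG1), where 5.54% of genes rose and 7.14% were called, and SOD2 changed by 0.99 ± 0.19 (edgeR adjusted p = 0.00198), just under a fold of 2. SLC7A2 rose by 2.25 ± 0.32 (edgeR adjusted p = 0.000189). In pDC 3 of the 4 members tested rose (IRG1, ASS1 and SOD2), where 9.5% of genes rose and 18.8% were called. SOD2 rose there by 1.37 ± 0.18 (edgeR adjusted p = 3.32e-05), and ARG2 gave 0.29 ± 0.24.

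LPS and PAM differed on NOS2 and IRG1, and CpG B and CpG A also on SLC7A2 and SOD2. At matched times and the same mass dose in moDC, LPS exceeded PAM for NOS2 by 4.28 ± 0.44 and for IRG1 by 1.30 ± 0.19 on the log2 scale (SE, edgeR adjusted p = 1.17e-05 and 0.000524), 2 of 6 members where 2.49% of genes were higher and 2.62% were called. SLC7A2, ASS1, SOD2 and ARG2 differed between LPS and PAM by -0.38 to 0.53 and did not pass. At the same molar dose CpG B exceeded CpG A for NOS2 by 4.87 ± 0.58, for SLC7A2 by 2.05 ± 0.37, for IRG1 by 1.57 ± 0.22 and for SOD2 by 1.05 ± 0.21, 4 of 6 members where 3.06% of genes were higher and 3.32% were called (edgeR adjusted p = 5.38e-05 to 0.00526). ASS1 went the other way, at -0.63 ± 0.18, and did not pass (edgeR adjusted p = 0.0632).

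LPS and CpG B, whose doses are in different units, gave no member past the threshold in moDC, where 0.227% of genes were called. NOS2 was higher with LPS by 1.35 ± 0.36 and IRG1 by 0.87 ± 0.19 (edgeR adjusted p = 0.126 and 0.0615), 3 members were under an unadjusted p of 0.05 in edgeR, and DESeq2 called none. NOS2 passed when the fit held the libraries of these ligands alone (1.35, edgeR adjusted p = 0.0012). In pDC none of the 4 members tested was called between LPS and PAM, CpG B and CpG A, or LPS and CpG B, where 1.2%, 2.1% and 0.18% of genes were called. At an unadjusted p of 0.05 in edgeR each of these had 1 member, and DESeq2 called none. IRG1 was higher with LPS than with PAM by 1.36 ± 0.38 (edgeR adjusted p = 0.110).

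Over the 16 conditions, 5 of 6 members were higher in moDC than in pDC, where 11.9% of all genes tested were higher and 21.8% were called in either direction. Of these 5, NOS2 and SLC7A2 did not reach the filter in the pDC libraries alone. SLC7A2 had 826 counts in moDC and 36 in pDC, with a lowest, median and highest level of 19.0, 157 and 411 CPM against 1.71, 3.64 and 19.5 CPM. IRG1 was at 183, 1113 and 3659.7 CPM against 12.6, 202 and 952 CPM, and ASS1 at 96.6, 177 and 283 CPM against 11.2, 27.6 and 106 CPM. These ranges overlapped between cultures, though within a condition each of the 3 genes was higher in moDC in 16 of 16 pairs, as was SOD2, whose ranges did not overlap. The share of all genes with such pairs or such ranges is not given here, so neither sets these members apart from other genes.

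The log2 differences were 4.54 ± 0.22 for SLC7A2, 2.62 ± 0.16 for IRG1, 2.46 ± 0.18 for ASS1 and 2.13 ± 0.10 for SOD2 (SE, edgeR adjusted p = 2.83e-16, 1.04e-13, 1.81e-12 and 2.2e-16). NOS2 behaved differently. Its medians were 5.75 CPM in moDC and 5.50 CPM in pDC, and moDC was higher in 10 of 16 pairs, with 4 moDC libraries at 0. The fit gave a log2 difference of 2.65 ± 0.41 (edgeR adjusted p = 4.09e-06), and DESeq2 gave 1.02 and did not call it (adjusted p = 0.134).

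**Figure D4:**
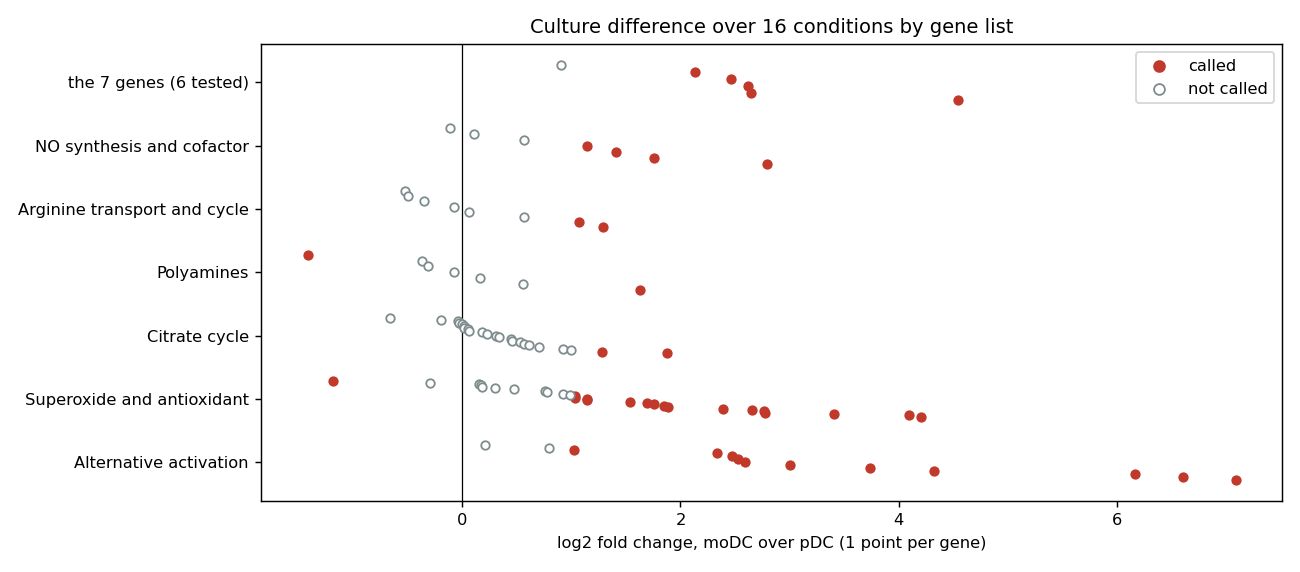
Log2 fold change of moDC over pDC across the 16 conditions, 1 point per gene tested, for the members and 6 related gene lists. Filled points passed the threshold. The alternative activation, antioxidant and citrate cycle lists each hold most of their points to the right of 0. Higher past the threshold were 11 of 13, 16 of 27 and 2 of 23 of their genes.

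Related genes were followed in 6 lists, chosen, as the members were, with earlier results of these data known. Their counts between cultures stand against 11.9% of all genes higher in moDC and 21.8% called in either direction. Of the nitric oxide synthesis and cofactor list, 4 of 7 tested genes were higher in moDC: Gch1 (1.41 ± 0.16), the first enzyme of the synthesis of the NOS cofactor tetrahydrobiopterin, Spr (1.14 ± 0.14), the last enzyme of that synthesis, and Nos1ap (2.79 ± 0.22) and Nostrin (1.76 ± 0.21), which encode binding partners of other nitric oxide synthases. The median of this list was 1.14, against -0.08 for all genes tested. Late, Gch1 was the 1 gene of the 7 tested that rose past the threshold. It did so in moDC with LPS (2.18 ± 0.43) and CpG B (2.05 ± 0.43), the ligands with which NOS2 was called. In pDC it rose with LPS (2.99 ± 0.51), CpG A (2.41 ± 0.51) and CpG B (2.37 ± 0.51), where NOS2 was not called, and Nostrin fell there with LPS (-2.50 ± 0.72) and CpG B (-2.95 ± 0.71). Over all genes 7.21% and 6.06% rose in moDC with LPS and CpG B, and 9.93% and 7.99% were called in either direction. In pDC with LPS, CpG A and CpG B 9.66%, 3.97% and 9.25% rose, and 15.6%, 4.89% and 18.8% were called. From 7 genes these counts cannot be told from such shares, and a link of Gch1 to NOS2 was not tested.

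Of the arginine transport and cycle list, 2 of 8 tested genes were higher in moDC, Slc3a2 (1.29 ± 0.09), the heavy chain of several amino acid transporters, and Slc7a7 (1.07 ± 0.23), one of its light chains. Slc3a2 rose late in moDC with LPS (1.60 ± 0.31) and PAM (1.47 ± 0.31), and Gatm fell late in pDC with CpG B (-2.36 ± 0.76). Of the polyamine list 7 genes were tested between cultures, of which Smox, the spermine oxidase, was higher in moDC (1.63 ± 0.20) and Sms, the spermine synthase, lower (-1.41 ± 0.23). Srm, the spermidine synthase, fell late in moDC with LPS (-1.92 ± 0.60), and Azin1 rose late in pDC with CpG B (1.34 ± 0.39). In each of these late comparisons 1 gene of the list was called, of 8 arginine or 7 polyamine genes tested. Over all genes 9.93% and 2.4% were called in either direction in moDC with LPS and PAM, and 18.8% in pDC with CpG B.

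The citrate cycle list, which holds the source of the substrate of IRG1, differed little between cultures: 2 of 23 genes, Idh1 (1.88 ± 0.17) and Mdh2 (1.28 ± 0.08), were higher in moDC, a share below that of all genes, and the list median was 0.31. Fh1, the fumarase, fell late in pDC with LPS (-1.42 ± 0.38), PAM (-1.43 ± 0.38) and CpG B (-1.40 ± 0.37) and in moDC with CpG B (-1.89 ± 0.48). In pDC Idh3g fell with LPS (-1.10 ± 0.36) and Idh2 with CpG B (-1.82 ± 0.49). No gene of this list rose past the threshold in a late comparison. In pDC 2, 1 and 2 of the 23 genes were called with LPS, PAM and CpG B, where 15.6%, 6.33% and 18.8% of all genes were called in either direction. In moDC 1 of 23 was called with CpG B, where 7.99% of all genes were. These shares were not above those of all genes.

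Of the superoxide and antioxidant list, 16 of 27 tested genes were higher in moDC and 1 was lower. Of the 16, only Nqo1 did not reach the filter in the pDC libraries alone. The largest differences were those of Mt2, a metallothionein (4.20 ± 0.20), Slc7a11, the cystine transporter (4.09 ± 0.19), Nqo1 (3.40 ± 0.23) and Hmox1, heme oxygenase (2.77 ± 0.16). Sod1, the cytosolic counterpart of SOD2, was the gene that was lower (-1.18 ± 0.08). Late, 4, 3, 0 and 2 of the 27 rose in moDC with LPS, PAM, CpG A and CpG B, and none fell. In pDC 7 rose and 2 fell with LPS, 3 rose and 1 fell with PAM, 1 rose with CpG A, and 3 rose and 4 fell with CpG B. Over all genes the shares that rose in pDC were 9.66%, 3.24%, 3.97% and 9.25% for LPS, PAM, CpG A and CpG B, so with CpG A and CpG B the number of list genes that rose was near the background. The shares of all genes called in either direction in pDC were 15.6%, 6.33%, 4.89% and 18.8%. In moDC 7.21%, 1.92% and 6.06% of all genes rose with LPS, PAM and CpG B, and 9.93%, 2.4% and 7.99% were called in either direction. With CpG B the number of list genes that rose was thus near the background in moDC too. Late in moDC Prdx1 rose with LPS, PAM and CpG B (1.32 ± 0.32, 1.50 ± 0.32 and 1.32 ± 0.32), and Slc7a11 rose with LPS and PAM (1.99 ± 0.42 and 2.15 ± 0.42). In pDC Gsr rose with LPS, PAM and CpG B (1.26 ± 0.41, 1.43 ± 0.41 and 2.53 ± 0.40), as SOD2 did. Txn1 rose there with LPS (1.76 ± 0.33) and Hmox1 with PAM (1.63 ± 0.49). Gpx1, a glutathione peroxidase, fell in pDC with LPS, PAM and CpG B (-1.63 ± 0.29, -1.08 ± 0.29 and -2.31 ± 0.29), opposite to SOD2.

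Of the alternative activation list, 11 of 13 tested genes were higher in moDC, among them Mgl2 (7.09 ± 0.18), a lectin, Ccl17 (6.60 ± 0.20), a chemokine, and Retnla (4.32 ± 0.29). Of the 11, 4 did not reach the filter in the pDC libraries alone (Mgl2, Retnla, Chi3l3 and Pdcd1lg2), so they passed the filter only through moDC, and the count of 11 is partly set by it. The other 7 reached it in either culture alone. ARG1, which is often read with these genes, held 103 counts in the same libraries. Late in moDC with LPS the list split, with 3 of 13 genes higher and 3 lower, where 7.21% of all genes rose and 9.93% were called in either direction. Ccl22 (2.85 ± 0.43), a chemokine, and Tgm2 (2.72 ± 0.32), a transglutaminase, rose most. Klf4 (-4.82 ± 0.83), a transcription factor, and Clec10a (-2.58 ± 0.70), a lectin, fell most.

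Across libraries the genes whose log2(CPM + 10) was most like a member's were named by Pearson correlation over the 32 libraries, and the values given are those within the 16 libraries of a culture, which share untreated library, ligands and times. SOD2 was followed by Procr (0.96 in moDC and 0.82 in pDC), Ccl9 (0.93 and 0.93) and Fpr2 (0.94 and 0.88). IRG1 was followed by Slc2a6 (0.96 and 0.88), by SOD2 itself (0.85 and 0.89) and by Ccl9 (0.88 and 0.90). NOS2 was followed by Slfn4 (0.85 and 0.88), Ddx60 (0.92 and 0.77) and Adap2 (0.93 and 0.44).

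For SLC7A2 the likeness held in moDC and not in pDC, where it had 1 to 7 counts: Tgm2 (0.97 and 0.46), Inhba (0.91 and -0.09) and Acsl1 (0.92 and 0.51). For ASS1 it was the reverse, with Glipr2 (0.41 and 0.86), Anxa4 (0.17 and 0.83) and C3 (0.12 and 0.92). For ARG2 the genes were Vti1b (0.69 and 0.59), Cxcl3 (0.72 and 0.45) and Pmp22 (0.81 and 0.31). These correlations are descriptions, and no test was made of them.

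The perturbation libraries are shallow and single, so values are given with 95% counting intervals of the ratio and no test. The targeted gene was checked first, on CPM of column totals. Cebpb had 3 counts in the moDC library with the Cebpb hairpin and 23 in its control, 10.4% of the control level, and Irf8 had 24 counts with the Irf8 hairpin and 32 in its control, 44.4% of the control level. The GFP control of pDC, which carries no hairpin against Irf8, stood at 38.5% of the same hairpin control (82 counts, 312 against 811 CPM). The library with the Irf8 hairpin, at 361 CPM, was not below it, so a lower Irf8 level than in both controls was not shown. The library labelled as overexpressing Cebpb had 22 Cebpb counts against 119, a ratio of 0.985 (0.595 to 1.56), so it did not show a higher level of the gene it is labelled for. Whether the 3′ end of the vector transcript is counted as Cebpb was not tested.

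With the Cebpb hairpin in moDC, IRG1 had 21 counts against 19 (ratio 0.885, 0.453 to 1.74), ASS1 14 against 14 (0.801, 0.354 to 1.81) and SOD2 10 against 15 (0.534, 0.214 to 1.27). SLC7A2 had 0 counts against 3, ARG2 0 against 2, ARG1 1 against 1 and NOS2 2 against 0. Of the 3 members with at least 10 counts over the libraries compared, none was past a fold of 2 (with 10 CPM added to each level), in a comparison where 24.6% of such genes were. No difference was detectable for these members at this depth.

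With the Irf8 hairpin in pDC, ASS1 had 32 counts against 2, or 481 against 50.7 CPM (ratio 9.48, 2.42 to 81.6), and SOD2 25 against 4, or 376 against 101 CPM (ratio 3.70, 1.28 to 14.6). IRG1 had 22 counts against 8 (ratio 1.63, 0.699 to 4.23), and NOS2 had none in either library. These make 2 of 3 members higher past a fold of 2, where 24.9% of genes were past it in either direction. The other pDC control, with the GFP vector, stood at 476 CPM for ASS1 and 468 CPM for SOD2, close to the library with the Irf8 hairpin and above the hairpin control by ratios of 9.39 (2.55 to 78.4) and 4.62 (1.76 to 17.2). For IRG1 the GFP control was above the hairpin control by a ratio of 3.27 (1.62 to 7.69). For these 3 genes the controls thus differed from each other by ratios of 3.27 to 9.39.

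In the library labelled as overexpressing Cebpb, IRG1 had 15 counts against 174 in the GFP control, or 305 against 663 CPM (ratio 0.460, 0.252 to 0.779). ASS1 had 20 against 125 (ratio 0.853, 0.504 to 1.37) and SOD2 29 against 123 (ratio 1.26, 0.808 to 1.90). SLC7A2 had 0 counts against 13 and ARG1 1 against 17, with intervals that reach 1.75 and 2.00. Of 5 members with at least 10 counts, 3 were lower past a fold of 2 (IRG1, SLC7A2 and ARG1), where 19.1% of genes were past it in either direction. In the library labelled as overexpressing Cebpb 3 counts come to 60.9 CPM. The control levels were 49.5 CPM for SLC7A2 and 64.7 CPM for ARG1, so a fall of these genes was not resolved at this depth. NOS2 had no count in any of the 4 pDC perturbation libraries, in which no ligand is named.

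**Figure D5:**
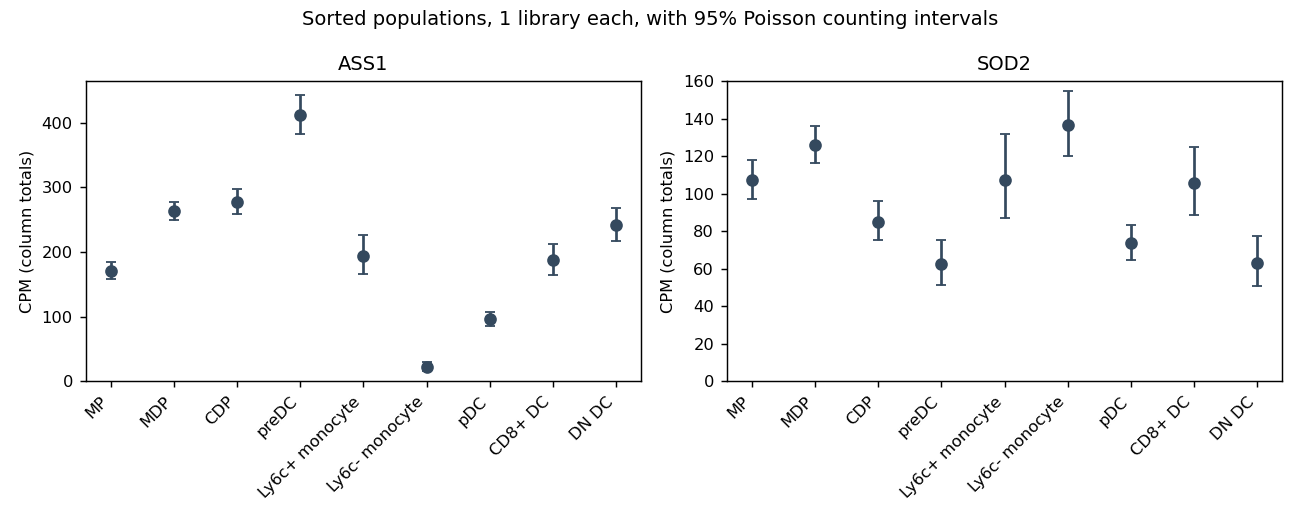
Level of ASS1 and SOD2 in 9 sorted populations, in CPM of column totals, 1 library each, with 95% Poisson counting intervals. ASS1 runs from 21.3 CPM in Ly6c- monocytes to 413 CPM in preDC, SOD2 from 62.6 to 137 CPM.

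Among sorted, unstimulated populations ASS1 spread far more than SOD2. ASS1 was highest in preDC at 413 CPM (95% Poisson interval 383 to 443), followed by CDP at 278 CPM, MDP at 263 CPM, DN DC at 242 CPM, Ly6c+ monocytes at 195 CPM, CD8+ DC at 188 CPM and MP at 171 CPM. Splenic pDC were lower at 96.3 CPM (86.2 to 107), and Ly6c- monocytes were lowest at 21.3 CPM (15.1 to 29.2), from 38 counts. The highest and lowest populations differed by 19.4-fold. Neighbours in this order had overlapping intervals except preDC over CDP, MP over pDC and pDC over Ly6c- monocytes.

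SOD2 ranged from 137 CPM in Ly6c- monocytes to 62.6 CPM in preDC, a 2.18-fold span in which every neighbour's interval overlapped the next. The Ly6c- monocytes, lowest for ASS1, were thus highest for SOD2, and preDC were the reverse. ARG2 had at most 5 counts in a population, in CD8+ DC and DN DC, and SLC7A2 at most 4, in MDP, so neither could be ordered at this depth. These levels were scaled apart from the stimulation table and are not compared with it.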

How the data were processed

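RNA 3′ ends were counted per gene symbol in 32 stimulation, 6 perturbation and 9 sorted libraries, and 1 sorted column that matched no label was not used. The stimulation table holds whole counts as deposited by the authors, and the other tables hold estimated counts as deposited by the authors, which were rounded first. Per the submitters' processing notes the tool and build named are TopHat and mm9, and the counting tool is not given in the sources used here. A row without a gene name (0.187% to 0.938% of stimulation counts) was left out. Replicates are absent, so conditions or times served as spread.

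Tests were edgeR 4.0.16 (R 4.3.3) quasi-likelihood fits, two-sided, with TMM scaling and genes at 20 CPM of column totals or more in at least 4 of its libraries. A call is a Benjamini-Hochberg adjusted p below 0.05 over all genes and a fold of at least 2. The culture test blocked on condition, the late tests used all 32 libraries with the 4 and 6 h libraries of a ligand as 1 group and assume that the lone untreated library varies like the rest, the time tests blocked on ligand and the ligand tests on time. Alternatives were DESeq2 1.42.0, scaling by column totals, no filter, smaller fits and leaving out libraries. All 7 genes are named. Genes of a list are named from the called genes with the largest changes, up to 4 per list and comparison. The members and lists were chosen with earlier results of these data known. The fits were tested on simulated data. Intervals and floors (95%, 3 counts) cover counting error only, since each condition or population is 1 library. Reads carry no molecular identifiers, so copies of 1 molecule may each be counted, and the intervals may be too narrow.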

Additional observations from a re-analysis of the deposited data

How the results depend on the processing

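Putting the 1 and 2 h libraries in place of 4 and 6 h lowered the number of members called: in pDC to 1 for LPS and CpG B and 0 for PAM and CpG A, and in moDC to 1 with LPS, 0 with PAM and 2 with CpG B. Under that setting the log2 changes in pDC of NOS2 with LPS (-1.72) and CpG B (-1.42), of ASS1 with CpG A (-0.057) and of SOD2 with CpG A (-0.19) had the opposite sign. The late moDC CpG A count was 1 with DESeq2, with no filter and with moDC alone, and 0 to 1 when 1 library was left out. That of pDC CpG A was 1 to 3 when 1 library was left out. The moDC count for LPS over PAM was 1 with the libraries of these ligands alone, where NOS2 did not reach the filter and was not tested. That for LPS over CpG B was 1 with the libraries of its ligands alone and 1 with no filter. With no filter the pDC counts were 1 for LPS over PAM and 2 for CpG B over CpG A. The late culture difference of ASS1 with CpG A was -1.91 to 0.55 when the 4 or the 6 h libraries were left out. Apart from the filter on NOS2, the cause of these changes was not tested. All other counts of members called (107 of 124 alternatives) stayed within 1.5 times. Scaling by column totals shifted the median of all genes by -0.47 (late LPS in pDC) to 0.25 on the log2 scale, and SOD2 lost its call for CpG B over CpG A (0.84, and 0.97 with no filter). The culture test pairs the libraries by condition, the time tests by ligand and the ligand tests by time. The labels give no replicate numbers to pair on. Depth limits NOS2, SLC7A2 and ARG1 in pDC most: their medians there were 5.50, 3.64 and 0.784 CPM, where 3 counts in a library come to 4.71 to 10.6 CPM.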
